A study of Mus musculus with 2 samples.

Results

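Lyz1 and Lyz2 are the adjacent mouse genes for lysozyme, and they were taken by gene symbol as 2 of the 55401 gene rows of a table of messenger RNA levels in myeloid-derived suppressor cells (MDSCs). MDSCs are immature, activated neutrophil-like and monocyte-like cells that restrain T cells in tumours. The genes were chosen by their counts and FPKM values in these same libraries, so their differences are given as a description, without a test. FPKM are fragments per kilobase of transcript, scaled to the depth of the library.

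One library came from mice with LysM-cre and floxed Mettl3 alleles (LysM-cre, Mettl3fl/fl), and the other, the floxed control, from Mettl3fl/fl mice without Cre. Both were C57BL/6 mice of 8 weeks that carried MC38 tumours, a line of mouse colon adenocarcinoma, although one label of the LysM-cre sample reads MC39. MDSCs were isolated with magnetic beads, co-cultured with MC38 cells for 24 h and sequenced as poly(A) RNA, and the number of animals behind each library is not stated. With 1 library per genotype no difference has a replicate check, and every 95% interval below covers counting error only. The total count was 59393864 in the LysM-cre-labelled library and 59506878 in the floxed control.

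Lysozyme cuts the peptidoglycan of bacterial cell walls. In mice the ancestral gene is duplicated: Lyz2 encodes the M form made by macrophages, monocytes and neutrophils, where it is a classical marker of the myeloid lineage, and Lyz1 encodes the P form best known from Paneth cells of the small intestine. LysM-cre is a knock-in of Cre recombinase at the start of the Lyz2 coding region. Cre is thus made where Lyz2 is active, and an allele that carries it does not encode lysozyme. The labels do not say how many copies of LysM-cre the mice carried.

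Mettl3, the floxed gene, encodes the catalytic subunit of the complex that writes N6-methyladenosine on RNA. It stood at 3.92 FPKM (1333 counts) in the LysM-cre-labelled library and at 4.16 FPKM (1413 counts) in the floxed control. The ratio of depth-scaled counts was 0.945 (95% interval 0.876 to 1.02), so the gene-level value does not separate the libraries, and the mutant library is called by its label throughout.

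Both lysozyme genes lie on the minus strand of chromosome 10 (mm10). Lyz2 (ENSMUSG00000069516) spans chr10:117277331-117282321 and Lyz1 (ENSMUSG00000069515) spans chr10:117287797-117292868, with 5475 bases between them. No other row of the table overlaps either gene on any strand. Each has 4 exons and a coding sequence of 447 bases in GENCODE M21. The first 300 coding bases of each, from the start codon, are shown because the whole comparison rests on telling their reads apart. They lie on exons 1 and 2 and hold 20 of the differences. Both are written 5′ to 3′, and capitals mark the bases at which the 2 genes differ.
Lyz1: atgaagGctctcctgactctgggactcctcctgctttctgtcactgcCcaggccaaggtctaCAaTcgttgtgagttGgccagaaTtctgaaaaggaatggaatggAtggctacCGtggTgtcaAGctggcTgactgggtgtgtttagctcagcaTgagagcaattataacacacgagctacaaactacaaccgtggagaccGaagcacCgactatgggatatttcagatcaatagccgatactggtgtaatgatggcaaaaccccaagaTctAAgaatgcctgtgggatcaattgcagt
Lyz2: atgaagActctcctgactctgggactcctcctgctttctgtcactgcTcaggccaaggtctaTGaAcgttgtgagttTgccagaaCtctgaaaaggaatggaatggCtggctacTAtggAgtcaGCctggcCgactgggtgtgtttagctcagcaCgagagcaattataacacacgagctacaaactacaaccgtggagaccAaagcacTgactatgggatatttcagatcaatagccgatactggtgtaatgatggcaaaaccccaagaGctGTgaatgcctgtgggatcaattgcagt
The complete coding sequences differ at 22 of 447 bases (95.1% identity), which fall in 18 of 149 codons. The differences are uneven along the gene. Exon 1 holds 14 of them in its 136 coding bases and exon 2 holds 6 in 165, whereas the 79 bases of exon 3 are identical and the 67 coding bases of exon 4 hold 2. The 3′ untranslated regions, of 786 bases in Lyz1 and 790 in Lyz2, were 96.3% identical over their aligned bases.

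The reads were 150 bases from each end of a fragment, per the labels, so the transcripts were also compared in windows of that length. None of the 1114 windows of the Lyz1 transcript occurred exactly in the Lyz2 transcript, and the longest identical run of the 2 transcripts was 118 bases. The windows had between 1 and 15 bases that were not identical to Lyz2, with a median of 6, and 553 of them had 5 or fewer. At 50 bases, 195 of 1214 Lyz1 windows (16.1%) were exact copies of Lyz2. No window of 50 bases from either gene occurred in a transcript of any other annotated gene. A full-length read without sequencing errors is therefore never identical in the 2 spliced transcripts, but many reads are separated by a few bases alone. The sources used here do not give how the authors placed reads that match both genes, so the Lyz1 value, next to a far more abundant copy, is uncertain.

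**Figure D1:**
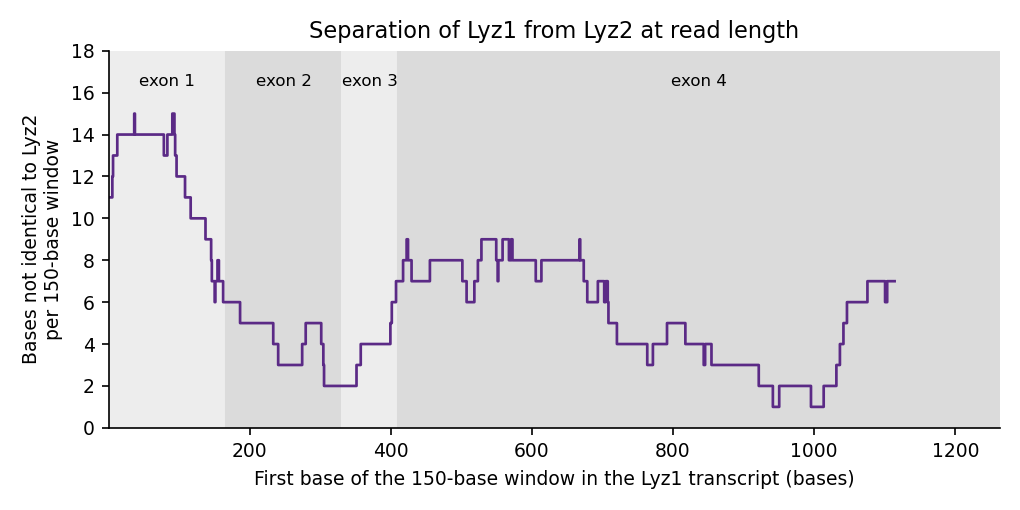
Bases per 150-base window of the Lyz1 transcript that are not identical to the aligned Lyz2 transcript (vertical axis), by the first base of the window (horizontal axis, in bases), with the 4 exons of Lyz1 shaded. Windows that start in exon 1 carry up to 15 such bases, and windows in exon 4 fall to as few as 1.

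Lyz2 was among the most abundant transcripts of both libraries and was lower in the LysM-cre-labelled library. It stood at 3006 FPKM in the LysM-cre-labelled library, against 5400.0 FPKM in the floxed control. These values rested on 263725 counts in the LysM-cre-labelled library and 474780 counts in the floxed control. The ratio of depth-scaled counts was 0.557 (95% interval 0.554 to 0.559), that is, 1.80-fold lower, and the log2 ratio of FPKM + 1 was −0.84. Among protein-coding rows Lyz2 ranked 3rd by FPKM in the LysM-cre-labelled library and 2nd in the floxed control. It took 0.444% of all counts in the LysM-cre-labelled library and 0.798% in the floxed control. Only the mice of the LysM-cre-labelled library carried Cre, which is inserted in Lyz2 itself. An effect of the insertion, an effect of deleting Mettl3 and a shift in cell types therefore cannot be told apart in the Lyz2 difference.

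Lyz1 was much less abundant in both libraries and was higher in the LysM-cre-labelled library. It stood at 81.9 FPKM in the LysM-cre-labelled library, against 16.9 FPKM in the floxed control. The counts were 6891 in the LysM-cre-labelled library and 1430 in the floxed control, a ratio of depth-scaled counts of 4.83 (95% interval 4.56 to 5.11) and a log2 ratio of FPKM + 1 of 2.21. By FPKM among protein-coding rows Lyz1 ranked 445th in the LysM-cre-labelled library and 2437th in the floxed control. The genes thus differed in opposite directions between the same 2 libraries.

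Levels of the 2 genes can be set side by side per length. The counts behind 1 FPKM were 0.960 times as many for Lyz1 as for Lyz2 in both libraries, and the annotated transcripts, of 1263 bases for Lyz1 and 1316 bases for Lyz2, have a length ratio of 0.960. On the FPKM scale Lyz2 exceeded Lyz1 by a factor of 36.7 in the LysM-cre-labelled library and by a factor of 319 in the floxed control. Lyz1 made up 2.55% of the summed Lyz1 and Lyz2 counts in the LysM-cre-labelled library (95% Clopper-Pearson interval 2.49 to 2.61) and 0.300% in the floxed control (0.285 to 0.316). The share was 8.48 times as large in the LysM-cre-labelled library. There were 38.3 Lyz2 counts for each Lyz1 count in the LysM-cre-labelled library and 332 in the floxed control. Whether shared reads were divided alike in both libraries is not known. The part of such a division in the Lyz1 difference was not tested.

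**Figure D2:**
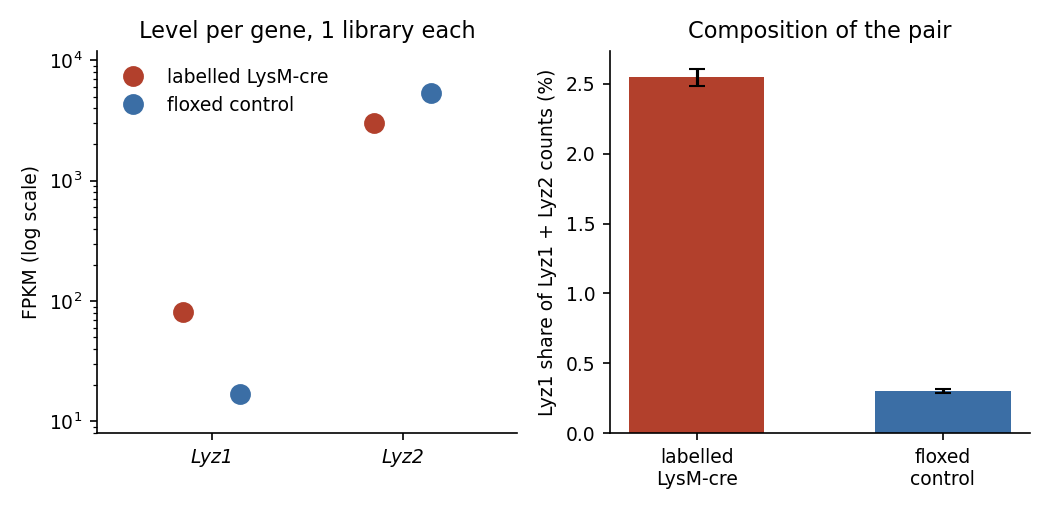
Left, FPKM of Lyz1 and Lyz2 on a log axis, 1 point per library. Right, Lyz1 as a percentage of the summed counts of both genes, with bars for the exact 95% interval of counting error. Lyz1 is higher and Lyz2 lower in the LysM-cre-labelled library, and the Lyz1 share is 2.55% there and 0.300% in the floxed control.

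The summed count of both genes is the same however shared reads were divided, provided that each was counted once in 1 of the 2 rows. The sources used here do not state this. The summed FPKM does depend on the division, slightly, because the transcripts differ in length. The sum was 270616 counts and 3088 FPKM in the LysM-cre-labelled library, against 476210 counts and 5417 FPKM in the floxed control. The ratio of depth-scaled summed counts was 0.569 (95% interval 0.567 to 0.572), and the log2 ratio of summed FPKM + 1 was −0.81. Lyz1 held 5461 counts more in the LysM-cre-labelled library, which is 2.59% of the 211055 counts by which Lyz2 was lower there. The summed level was thus lower in the LysM-cre-labelled library, as that of Lyz2 was.

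On the log2 scale of FPKM + 1, few genes differed as much as either lysozyme gene. This scale understates differences of genes with low values, and the ranks were not computed on another. Of the 12526 genes whose mean reached 1 FPKM (the genes kept), 1.31% were at least 2-fold higher in FPKM + 1 in the LysM-cre-labelled library, and Lyz1 was one of them. Its log2 ratio ranked 23rd from the top among all genes kept and 9th among the 10247 protein-coding genes kept. The share at least 1.5-fold higher was 3.19%. Lyz2 passed 1.5-fold lower but not 2-fold lower. At least 1.5-fold lower values were found for 3.28% of the genes kept and at least 2-fold lower values for 1.18%. The log2 ratio of Lyz2 ranked 223rd from the bottom among all genes kept and 78th among the protein-coding genes kept. Of the 367 protein-coding genes that averaged at least 100 FPKM, Lyz2 alone had a ratio that low (0.272%). Immunoglobulin genes are a class of their own in the annotation, and one of them, Ighm, was lower still at −1.07. The median log2 ratio of all genes kept was 0.00, with 50.3% of them higher and 49.7% lower by any amount in the LysM-cre-labelled library. Since the lysozyme genes were chosen with these values known, their positions describe the libraries and are not evidence of an effect.

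**Figure D3:**
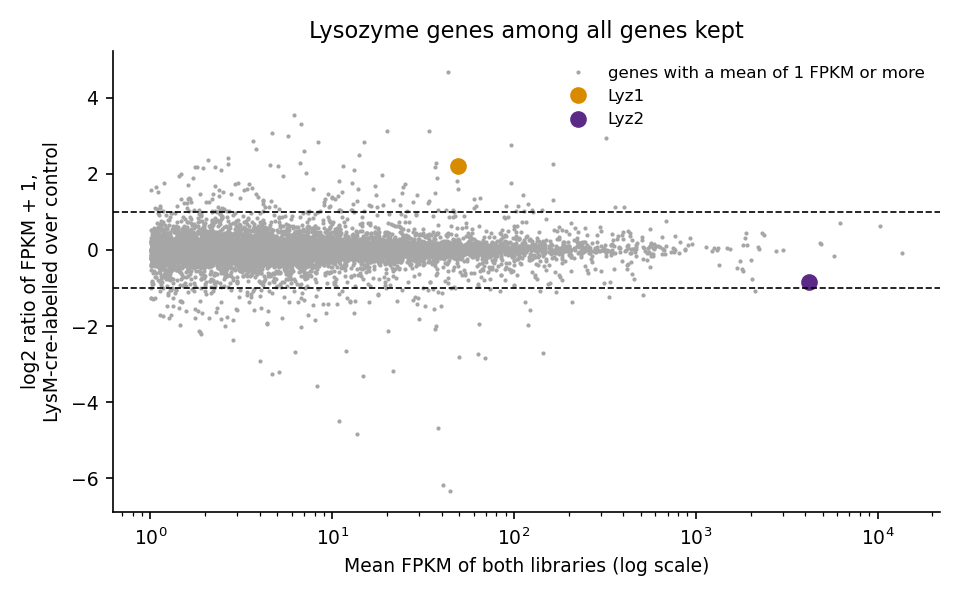
The log2 ratio of FPKM + 1 in the LysM-cre-labelled library over the floxed control (vertical axis) against mean FPKM of both libraries (log axis) for 12526 genes, with dashed lines at 2-fold. Lyz1 lies at 2.21, above the upper line, and Lyz2 at −0.84, close to the lower line among highly expressed genes.

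The genes that flank the lysozyme genes lay at the same level in both libraries within counting error. Of the 11 other rows that start within 200 kb of either gene, 8 had no count in any library. Yeats4, which encodes a chromatin reader of histone acylation, stood at 18.5 FPKM (1750 counts) in the LysM-cre-labelled library and 18.6 FPKM (1759 counts) in the floxed control, a ratio of depth-scaled counts of 0.997 (95% interval 0.932 to 1.07). Cpsf6, on the other side, encodes a subunit of a complex for messenger RNA 3′ end processing. It stood at 5.07 FPKM (3559 counts) in the LysM-cre-labelled library and 5.04 FPKM (3542 counts) in the floxed control, a ratio of 1.01 (0.961 to 1.06). The long noncoding RNA gene Gm40770 had 4 counts in the LysM-cre-labelled library and 0 in the floxed control. The differences at Lyz1 and Lyz2 were not shared by these neighbours.

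Other members of the lysozyme family were near or at 0. Of the 10 family genes listed, 7 had no count in either library: Lyzl1, Lyzl6, Spaca3 and Spaca5, whose products are known from testis and sperm, the milk protein gene Lalba, and the goose-type lysozyme genes Lyg1 and Lyg2. Lyzl4 had 13 counts in the LysM-cre-labelled library and 9 in the floxed control. Nearly all lysozyme family RNA was thus that of Lyz2, with Lyz1 next.

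The promoters were compared because genes that differ in opposite directions here are close copies up to their starts. In the RefSeq promoter windows (GRCm38.p6, 250 bases before to 50 after the RefSeq start), 251 of 291 aligned bases were identical, and an identical run of 86 bases began 50 bases before the start. The 80 bases upstream of that run, from 130 to 51 bases before the RefSeq start, are shown 5′ to 3′ on the minus strand, with capitals for the 10 bases that differ, at chr10:117292919-117292998 for Lyz1 and chr10:117282323-117282402 for Lyz2.
Lyz1: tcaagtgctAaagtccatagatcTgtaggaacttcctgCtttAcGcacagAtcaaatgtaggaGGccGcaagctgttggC
Lyz2: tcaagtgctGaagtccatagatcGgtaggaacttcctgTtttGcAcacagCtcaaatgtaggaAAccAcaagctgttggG
The RefSeq start of Lyz1 is also its GENCODE start, whereas the GENCODE start of Lyz2 lies 49 bases upstream of the RefSeq start, 1 base from the end of the stretch shown. The windows were compared at the RefSeq starts. Both stretches hold 1 match to CAGGAAGT, an ETS family consensus, on the reverse strand as ACTTCCTG, starting 100 bases before the RefSeq start. Of 32851 promoter windows in the table, 3.33% hold this motif on either strand. A match is a description of the letters only.

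Transcription factors that act in lysozyme-expressing myeloid cells showed no common shift. Of 12 listed, 5 were higher and 7 lower in the LysM-cre-labelled library, with a median log2 ratio of −0.05. Only 1 of them differed by 1.5-fold or more. Of all genes kept, 3.19% were at least 1.5-fold higher and 3.28% at least 1.5-fold lower. Spi1, which encodes the ETS factor PU.1, stood at 144 FPKM in the LysM-cre-labelled library and 154 FPKM in the floxed control. Cebpa stood at 28.7 FPKM in the LysM-cre-labelled library and 28.5 FPKM in the floxed control, and Cebpb at 65.8 FPKM in both. These C/EBP factors drive granulocyte and macrophage genes. Klf4, a monocyte factor, stood at 52.3 FPKM in the LysM-cre-labelled library and 51.8 FPKM in the floxed control. Irf8, which directs monocyte and dendritic cell fate, was the exception, at 21.5 FPKM in the LysM-cre-labelled library and 45.7 FPKM in the floxed control (log2 ratio −1.05). Cebpe, Cebpd, Ets1, Fli1, Runx1, Gfi1 and Myb had log2 ratios between −0.14 and 0.31.

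Most listed genes for antimicrobial proteins stored or made beside lysozyme had smaller RNA differences than Lyz2. Of 19 granule and phagocyte genes kept, 8 were higher and 11 lower in the LysM-cre-labelled library, with a median log2 ratio of −0.11 and a range of −0.42 to 0.97. S100a9, a subunit of the metal-binding protein calprotectin, stood at 5477 FPKM in the LysM-cre-labelled library and 6078 FPKM in the floxed control. It was above Lyz2 in both. S100a8, the other subunit, stood at 1578 FPKM in the LysM-cre-labelled library and 1928 FPKM in the floxed control. The granule protein gene Ngp stood at 1821 FPKM in the LysM-cre-labelled library and 2184 FPKM in the floxed control. Ctss, which encodes the lysosomal protease cathepsin S, stood at 874 FPKM in the LysM-cre-labelled library and 864 FPKM in the floxed control. The largest positive ratios in this list were those of the primary granule protease genes Prtn3 (0.97) and Elane (0.93), larger in size than that of Lyz2 and smaller than that of Lyz1.

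Genes that detect or carry the peptidoglycan fragments released by lysozyme were nearly level. All 12 listed were kept, 4 higher and 8 lower in the LysM-cre-labelled library, with a median log2 ratio of −0.03 and none at 1.5-fold. Among all genes kept, 3.19% were at least that much higher and 3.28% at least that much lower. The receptor gene Nod1, which senses fragments with diaminopimelic acid, stood at 33.9 FPKM in the LysM-cre-labelled library and 41.7 FPKM in the floxed control (log2 ratio −0.29). Nod2, the sensor of muramyl dipeptide, stood at 5.97 FPKM in the LysM-cre-labelled library and 6.69 FPKM in the floxed control. Nlrp3, the inflammasome sensor, went the other way, at 18.8 FPKM in the LysM-cre-labelled library and 14.7 FPKM in the floxed control (0.33). The kinase gene Ripk2, the transporter genes Slc15a3, Slc15a4 and Slc46a3, the receptor genes Tlr2 and Cd14, and Pglyrp1, Card9 and Hk2 had log2 ratios between −0.13 and 0.15.

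In a library of mixed cells, fewer cells of a type and less RNA per cell cannot be told apart, so markers of the cells that make lysozyme were set beside it. Of 34 different monocyte, macrophage and neutrophil markers, 17 were higher and 17 lower in the LysM-cre-labelled library, with a median log2 ratio of −0.01. Their summed level was 13093 FPKM in the LysM-cre-labelled library and 13628 FPKM in the floxed control, a ratio of 0.961. The largest members of the sum were the neutrophil markers S100a9 and S100a8, both lower in the LysM-cre-labelled library. S100a9 stood at 5477 FPKM there and 6078 FPKM in the floxed control, and S100a8 at 1578 FPKM and 1928 FPKM. The direction of the sum thus rests largely on these genes. Lyz2 was equal to 23.0% of this sum in the LysM-cre-labelled library and to 39.6% in the floxed control. On the log2 scale of FPKM + 1, Spp1 was the single marker with a ratio as low as that of Lyz2. Vsig4, a macrophage receptor gene with few reads, was as low in depth-scaled counts (ratio 0.374, 95% interval 0.281 to 0.492, on 72 counts in the LysM-cre-labelled library and 193 in the floxed control), but at −0.77 on that scale. Of the 30 markers that averaged at least 10 FPKM, none was as low. The lowest was Stfa2l1, a neutrophil gene, at −0.68. Neutrophil markers were mostly lower (9 of 11, median −0.29, summed level 8548 FPKM in the LysM-cre-labelled library and 9560 FPKM in the floxed control). Macrophage markers were mostly higher (10 of 13, median 0.15, summed level 3026 FPKM in the LysM-cre-labelled library and 2673 FPKM in the floxed control). Monocyte markers were divided evenly (5 higher and 5 lower, median 0.02, summed level 1519 FPKM in the LysM-cre-labelled library and 1396 FPKM in the floxed control). The part of such shifts in the Lyz2 difference was not tested.

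Granulocyte precursors and eosinophils were also covered by lists in which most members were higher, as Lyz1 was. The same held for all 7 erythroid markers (median 0.41), and 50.3% of all genes kept were higher by any amount. Of 9 precursor genes kept, 6 were higher in the LysM-cre-labelled library, with a median of 0.25. Their summed level went the other way, at 987 FPKM in the LysM-cre-labelled library and 1152 FPKM in the floxed control, because the abundant members Camp (log2 ratio −0.26) and Ltf (−0.31) were lower. All 8 eosinophil genes were higher (median 0.49, summed level 895 FPKM in the LysM-cre-labelled library and 672 FPKM in the floxed control). Epx, which encodes the peroxidase of eosinophil granules, had 349 counts in the LysM-cre-labelled library and 63 in the floxed control. Its ratio of depth-scaled counts was 5.55 (95% interval 4.23 to 7.38), above the 4.83 of Lyz1, while on the log2 scale of FPKM + 1 it was 1.11. Epx had the highest ratio of depth-scaled counts among the 8 eosinophil genes. The most abundant of them, Ear2 and Ccr3, were at 1.27 and 1.37. The scavenger receptor gene Marco, a macrophage marker, stood at 25.9 FPKM in the LysM-cre-labelled library and 8.83 FPKM in the floxed control (1.45), the highest log2 ratio of FPKM + 1 among the 34 myeloid markers. Of 8 genes of Paneth cells, the defensin genes Defa24, Defa30 and Defa17 and the genes Ang4, Mptx2, Mmp7 and Pla2g2a had no count in either library, and a count of 0 allows up to 3. Itln1 stood at 2.97 FPKM in the LysM-cre-labelled library and 3.47 FPKM in the floxed control. Paneth cell RNA was thus not detectable through its defensins. The part of precursors, eosinophils or macrophages in the Lyz1 difference was not tested.

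**Figure D4:**
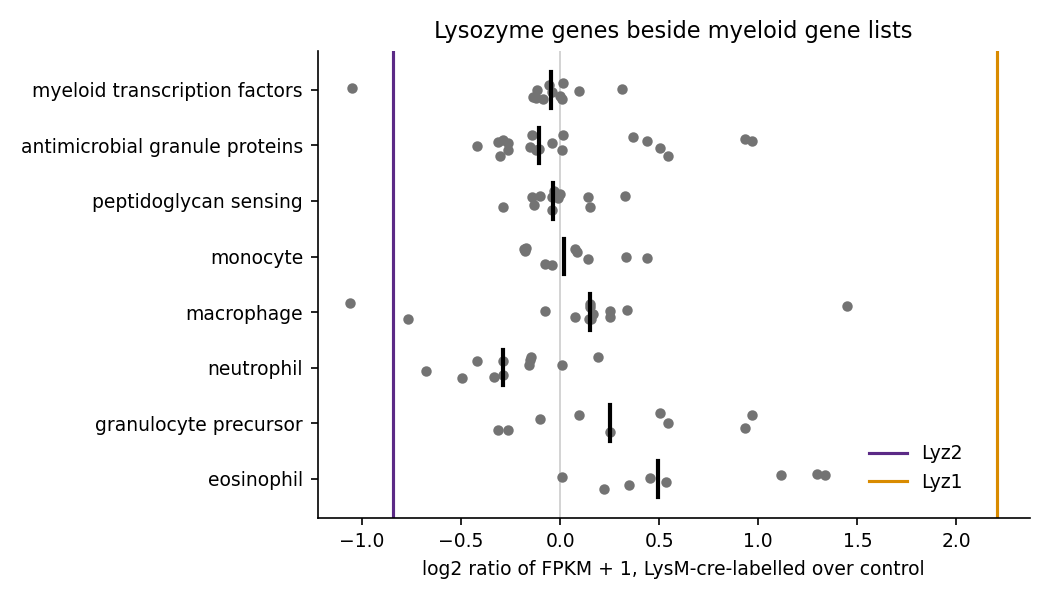
The log2 ratio of FPKM + 1 in the LysM-cre-labelled library over the floxed control for the members kept from 8 gene lists (points) and their medians (bars), with lines for Lyz2 and Lyz1. Irf8 and Spp1 are the points left of the Lyz2 line at −0.84, and no point reaches the Lyz1 line at 2.21 on this scale, which shortens the ratios of low genes such as Epx (1.11) and Vsig4 (−0.77).

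Markers of other lineages had counts in both libraries. The summed level of 10 B and plasma cell markers was 15396 FPKM in the LysM-cre-labelled library and 17383 FPKM in the floxed control. Of these markers, 9 were lower in the LysM-cre-labelled library, and the median log2 ratio was −0.09. The immunoglobulin M constant gene Ighm made most of the difference in the sum, at 1360 FPKM in the LysM-cre-labelled library and 2848 FPKM in the floxed control (log2 ratio −1.07). Jchain was the 1 marker that was higher, at 555 FPKM in the LysM-cre-labelled library and 255 FPKM in the floxed control (1.12). All 7 erythroid markers were higher in the LysM-cre-labelled library (median 0.41), with a sum of 1384 FPKM there and 988 FPKM in the floxed control. Markers of T and NK cells (4 higher and 4 lower of 8 kept), dendritic cells (2 higher and 4 lower of 6 kept) and epithelium (1 higher and 1 lower of 2 kept) had medians of −0.01, −0.03 and 0.19. Of the 8 epithelial markers listed, 6 fell below a mean of 1 FPKM. The summed level of this list was only 4.39 FPKM in the LysM-cre-labelled library and 4.26 FPKM in the floxed control.

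Among the 747 other protein-coding genes that averaged at least 50 FPKM, those with the ratio nearest to Lyz2 over these 2 libraries were Grb2, an adaptor of receptor signalling (log2 ratio −0.71), Pitpna, a phosphatidylinositol transfer protein (−0.65), and the interferon-inducible gene Ifi202b (−0.65). Grb2 stood at 50.0 FPKM in the LysM-cre-labelled library and 82.1 FPKM in the floxed control. Nothing in this group lay close to Lyz1. The nearest were the ribosomal protein gene copy Rps27rt (2.93), Jchain, which encodes the joining chain of immunoglobulins (1.12), and the ribosomal protein gene Rpl41 (1.12). A single ratio is a weak measure of likeness.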

How the data were processed

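The values come from a single table that covers the whole series. Per the file headers it holds, for each gene row and library, a count and an FPKM value made by the authors. The deposited counts are whole numbers and are not normalized. The deposited FPKM values carry the authors' scaling to library depth and transcript length, and a value of 0.0001 at a count of 0 was read as 0. Per the submitters' processing notes, the tools were HISAT2 2.0.4, cutadapt 1.9, DESeq2, edgeR and StringTie 1.3.4d on build mm10. What each did, and with which settings, is not stated in the sources used here. A further 8 value columns that no label describes were not used.

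Rows were found by symbol. Each log2 ratio sets FPKM + 1 of the LysM-cre-labelled library over that of the control, and genes were kept when they averaged at least 1 FPKM. Differences of genes with low values are understated on this scale. Counts divided by the library total were compared with exact (Clopper-Pearson) 95% intervals. Reads copied by PCR do not count separate molecules, and the intervals hold counting error alone. With 1 library per genotype no test was possible, and features were counted by fixed folds of 2 and 1.5. The lysozyme genes and the gene lists were chosen with earlier results of these data known. Named were the lysozyme genes, Mettl3, all members of the family, transcription factor, sensing and Paneth lists, rows within 200 kb, the most abundant members of the other lists, and the 3 genes nearest in ratio. Marco, Spp1, Vsig4, Stfa2l1, Epx, Elane and Prtn3 were named after their values were seen. The symbol Azu1 had no row. Transcripts and exons were taken from GENCODE M21 (GRCm38), in which 55141 identifiers were found, 94.2% of them with the same start and end, and promoters from RefSeq. Transcripts were aligned with Biopython 1.88. Scaling factors came from edgeR 4.0.16 (R 4.3.3). The rule of size and the intervals were tried on simulated counts that varied by counting error alone. The simulation did not cover variation between animals or how reads were divided between the lysozyme genes. Scripts ran on Python 3.11.15 with scipy 1.17.1, pandas 2.3.3, matplotlib 3.10.9 and numpy 2.4.6.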

Additional observations from a re-analysis of the deposited data

How the results depend on the processing

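Lyz1 stayed higher and Lyz2 lower in the LysM-cre-labelled library under 7 other settings. They were pseudocounts of 0.1 and 5 FPKM, TPM, CPM, TMM, median-ratio factors, and totals without immunoglobulin and haemoglobin genes. A pseudocount added to both sides cannot reverse a direction. The TMM factors were 0.999 in the LysM-cre-labelled library and 1.00 in the floxed control, too close to reverse one. These settings therefore describe the size of the ratios and are no check of their direction. Adding overlapping rows could change nothing, since 0 rows overlap either gene. The log2 ratio of Lyz1 ranged from 1.98, with a pseudocount of 5 FPKM, to 2.27. That of Lyz2 ranged from −0.86, after rescaling to TPM, to −0.84. The summed ratio was −0.82 with totals without immunoglobulin and haemoglobin genes, and the Lyz1 share in the LysM-cre-labelled library was 2.65% with FPKM in place of counts. The counts of genes at 2-fold depended on the settings more. Against 164 higher and 148 lower as reported, there were 90 higher and 73 lower at a minimum of 5 FPKM, 251 and 252 at a pseudocount of 0.1 FPKM, 62 and 54 at 5 FPKM, and 62 and 48 among protein-coding rows. No paired analysis was possible because each genotype had 1 library. For the same reason no library could be left out. At 1430 counts or more per library and lysozyme gene, depth limited neither direction, but how reads were divided between the 2 rows is not known.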
